A study of Mus musculus with 384 samples.

Results

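The 10 genes described here are the cyclins D (Ccnd1, Ccnd2, Ccnd3) and E (Ccne1, Ccne2), the kinases Cdk4 and Cdk6, and the CDK inhibitors Cdkn1a (p21), Cdkn1b (p27) and Cdkn2c (p18). They were chosen by name as regulators of the G1 phase, with earlier results of these data known. These 10 of 49585 genes in a table of read counts were followed across wells of single mouse mammary cells. The plate held 384 wells. Of these, 376 held a single embryonic progenitor, adult basal cell or adult luminal cell, 1 well per gate held 50 cells and 4 wells no cell, while for 1 more the title and the sort label disagree. Embryonic cells came from the skin with mammary buds of female Lgr5-EGFP-IRES-CreER embryos at embryonic day 14 and were sorted as CD49f Hi/Lgr5 Hi, so that the level of Lgr5 was used for the sort. Adult cells came from mammary glands of Rosa-tdTomato mice, a reporter strain, and were sorted as CD24+CD29Hi (basal) or CD24+CD29Lo (luminal). The labels give no age for the adults and name no animal, so each gate was 1 sample. No test of a difference between gates was possible, every interval below covers counting error only, and stage, strain and dissociation (adult tissue was digested for longer and trypsinised) cannot be told apart. Gates were also spread unevenly over the plate rows, so plate position is a further difference between them.

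D-type cyclins bind Cdk4 or Cdk6 in G1 and start the phosphorylation of the retinoblastoma proteins, which frees E2F factors. E2F factors switch on genes for DNA replication, among them the E-type cyclins, which bind Cdk2 and bring the cell into S phase. The INK4 proteins, such as Cdkn2c, bind Cdk4 and Cdk6 alone, while the Cip/Kip proteins Cdkn1a and Cdkn1b bind cyclin-kinase complexes. In the mouse mammary gland, Ccnd1 is known for its part in alveolar growth in pregnancy, and Cdkn1b is a known brake on division of the epithelium.

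Single-cell wells with at least 50000 reads on genes, spike-ins left out, were kept, 347 of 376, which left out 10 embryonic, 10 basal and 9 luminal wells. Embryonic wells were 36.6%, basal wells 31.1% and luminal wells 32.3% of the 347. Their median depth was 697578, 450196 and 525176 gene reads, and the wells of 50 cells held 621792, 601969 and 532820. The embryonic gate carried the bud marker Sox11 (1050 CPM, reads of the gene scaled by the gene reads of the summed wells). The basal gate carried Acta2 (9455 CPM) and Trp63 (480.8 CPM), and the luminal gate Krt18 (6280 CPM) and Krt8 (4694 CPM). Lgr5 was used for the embryonic sort, so its level is no independent check of that gate. Sums of Lgr5 were 549.9 CPM for embryonic, 207 CPM for basal and 38.3 CPM for luminal wells. Among the wells of 50 cells, Lgr5 stood at 362 CPM for basal, 298 CPM for embryonic and 0 CPM for luminal cells. By rank correlation with the wells of 50 cells, all but 1 embryonic, 10 basal and 3 luminal wells were closest to their own gate. Of these, 8 basal wells were closest to the luminal well, and 2 basal and 2 luminal wells were closest to the embryonic one. At least 3 of 8 fibroblast markers were detected in 24 embryonic, 6 basal and 0 luminal wells, although CD140a+ cells were sorted out, and the 8 markers together ranged from 0 to 93936, from 0 to 21730 and from 0 to 2997 CPM per well. At least 3 of 6 endothelial markers were detected in 7 basal wells and in no other gate. The leukocyte marker Ptprc stood at 0 CPM in embryonic and luminal and 0.07 CPM in basal sums. The wells of 50 cells were not free of such transcripts. Their 8 fibroblast markers together stood at 9350 CPM for embryonic, 1628 CPM for basal and 146 CPM for luminal cells, beside 3923, 2516 and 75.8 CPM in the sums. Their 6 immune markers together stood at 22.5, 76.4 and 0 CPM, beside 7.97, 2.68 and 1.98 CPM in the sums.

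Cyclins D and E and Cdk4 were higher in the embryonic progenitors than in either adult gate. Cdkn1a was highest in luminal and Cdkn1b in basal cells, and Cdkn2c was low in all gates. Against basal cells, 7 of the 10 genes (the 5 cyclins, Cdk4 and Cdk6) were at least 2-fold higher in embryonic wells, where 33.8% of the 12808 genes at 5 CPM or more passed the same rule, and 2 (Cdkn1a and Cdkn1b) were at least 2-fold lower, against 19.4% of genes. Counting only genes that passed both in the summed wells and between the wells of 50 cells gave 7 and 2 again, against 19.1% and 11% of genes. Against luminal cells, 6 genes (the same without Cdk6) were higher, where 39.3% of 12679 genes were, and 1 (Cdkn1a) was lower, where 17.6% were. With the wells of 50 cells these counts were 6 and 1, against 26.6% and 10.6% of genes. Between the adult gates 8 genes were measured: Ccnd2 and Cdkn1b were at least 2-fold higher in basal wells (2 genes, background 28.3%), and Ccnd1 and Cdkn1a at least 2-fold lower (2 genes, background 21.3%). There the wells of 50 cells kept the 2 higher genes (background 15.6%) and 1 lower gene, Cdkn1a (background 9.47%).

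The median log2 ratio of the 10 genes was 1.67 against basal and 1.89 against luminal cells, beside 0.38 and 0.58 over all genes measured. Between basal and luminal cells the medians were 0.24 and 0.14. Scaling moved the median of all genes: for embryonic against basal cells it shifted by -0.31 under TMM and -0.36 under median-of-ratios scaling and by 1.28 with spike-in reads as the total, and for embryonic against luminal cells by -0.45, -0.49 and 0.50. Of all genes called against basal cells, 63.5% were higher in embryonic wells, and this share was 52.1%, 50.4% and 89.8% under those scalings. Against luminal cells it was 69.1%, and then 54.4%, 52.6% and 80.6%. For basal against luminal cells spike-in totals shifted the median by -0.79 and took the share of higher calls from 57% to 26.8%. The 20 ratios of the 10 genes that reached 2-fold kept their sign under the 15 alternatives run. Among these, another prior or no minimum level cannot change a sign.

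**Figure D1:**
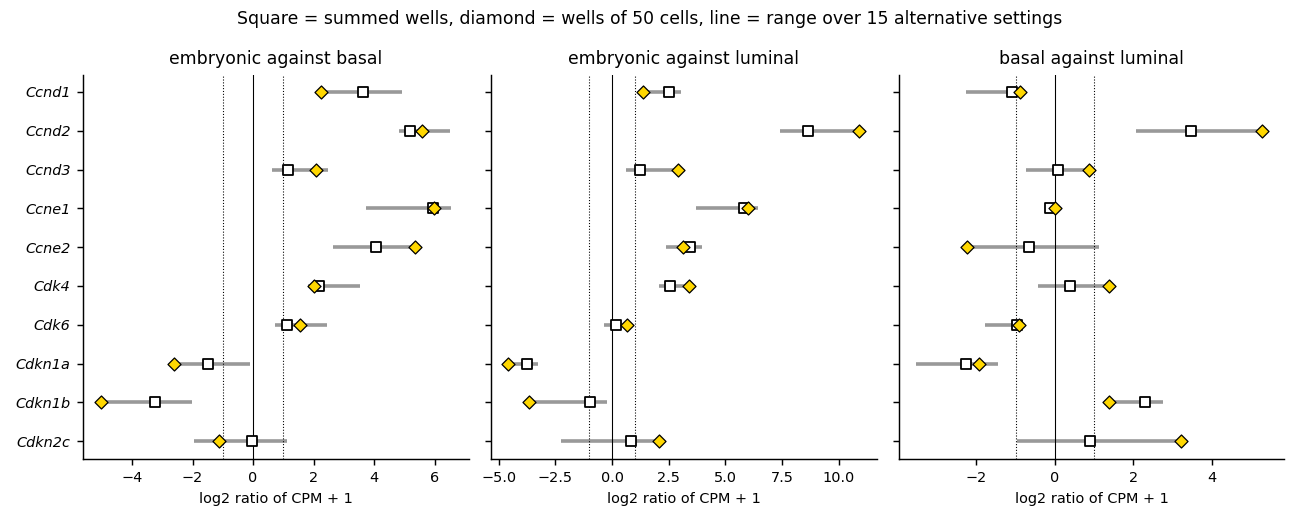
Log2 ratio of CPM (with 1 CPM added to each side) for the 10 genes in the 3 comparisons of gates. Squares are summed single-cell wells, diamonds the wells of 50 cells, grey lines the range over 15 other settings, and dotted lines 2-fold. Ccnd2 and Ccne1 lie farthest to the right against both adult gates, and Cdkn1a lies farthest to the left against luminal cells.

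Ccnd2, a D cyclin, was the most uniform mark of the embryonic progenitors among these genes. Its level per embryonic well ran from 0 over a median of 2395 to 18308 CPM, and all but 1 well held a read. In basal wells the lowest and the median were 0 and the highest 1821 CPM, and in luminal wells 0, 0 and 1265 CPM. The embryonic quartiles (1604 to 4264 CPM) lay above the basal (0 to 5.79 CPM) and luminal ones (0 to 0.17 CPM), although single adult wells reached embryonic levels. The summed level was 3032 CPM in embryonic, 81.8 CPM in basal and 6.51 CPM in luminal wells, 37.1-fold (95% interval 36 to 38.2) and 466-fold (424 to 512) higher in embryonic cells. The wells of 50 cells stood in the same order, with 1901 CPM, 38.2 CPM and 0 reads of 532820, the last a difference of at least 338-fold at the limit of 3 reads. In such a well, fewer cells with the transcript and less transcript per cell cannot be told apart.

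The small luminal total of Ccnd2 came from few wells. Luminal wells 14 and 9, numbered in accession order, were both closest to the embryonic well of 50 cells and held 208 and 166 of the 445 luminal reads. Well 14 also carried 8 of 10 mitosis markers. Without the 14 wells of any gate that were closest to another gate, the luminal level of Ccnd2 was 0.89 CPM, the basal level 79.3 CPM and the embryonic level 3046 CPM.

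Ccnd1, the D cyclin best known as a Wnt and growth factor target, was also highest in embryonic cells, but with more spread. Its level per embryonic well ran from 0 over a median of 181 to 1668 CPM, in basal wells from 0 over 0 to 404.6 CPM, and in luminal wells from 0 over 2.01 to 864 CPM. Embryonic quartiles (79 to 358 CPM) did not overlap those of luminal (0 to 44 CPM) or basal wells (0 to 0 CPM), while the adult quartiles overlapped each other. The sums were 314, 24.4 and 53.5 CPM, and the wells of 50 cells 98.1, 19.9 and 37.5 CPM. The embryonic level was 12.9-fold (12.2 to 13.6) above basal and 5.87-fold (5.67 to 6.07) above luminal cells in the sums, and 4.92-fold (2.62 to 10.0) and 2.61-fold (1.56 to 4.57) in the wells of 50 cells. Luminal cells were 2.19-fold (2.06 to 2.34) above basal cells. In the basal gate, well 68, which was closest to the luminal well of 50 cells, held 28.2% of the Ccnd1 reads, and without the wells closest to another gate the basal level was 10.3 CPM.

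Ccnd3, the third D cyclin, differed least. The well values ran from 0 over a median of 83.9 to 1197 CPM in embryonic, from 0 over 0 to 2719 CPM in basal and from 0 over 0 to 949 CPM in luminal wells, and all quartiles overlapped. Sums of 193, 86.2 and 80.8 CPM put embryonic cells 2.24-fold (2.17 to 2.31) above basal and 2.39-fold (2.32 to 2.46) above luminal cells. The wells of 50 cells gave 149.6, 34.9 and 18.8 CPM. These ratios fell under 2-fold with TMM scaling (log2 0.84 and 0.78), and in the plate rows that held wells of both gates they were 0.62 and 0.61. Those rows held 25 embryonic and 66 basal kept wells for the first ratio, and 37 embryonic and 91 luminal for the second. Basal and luminal cells differed by 1.07-fold (1.03 to 1.11), and the sign of that difference changed with scaling (-0.05 under TMM).

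**Figure D2:**
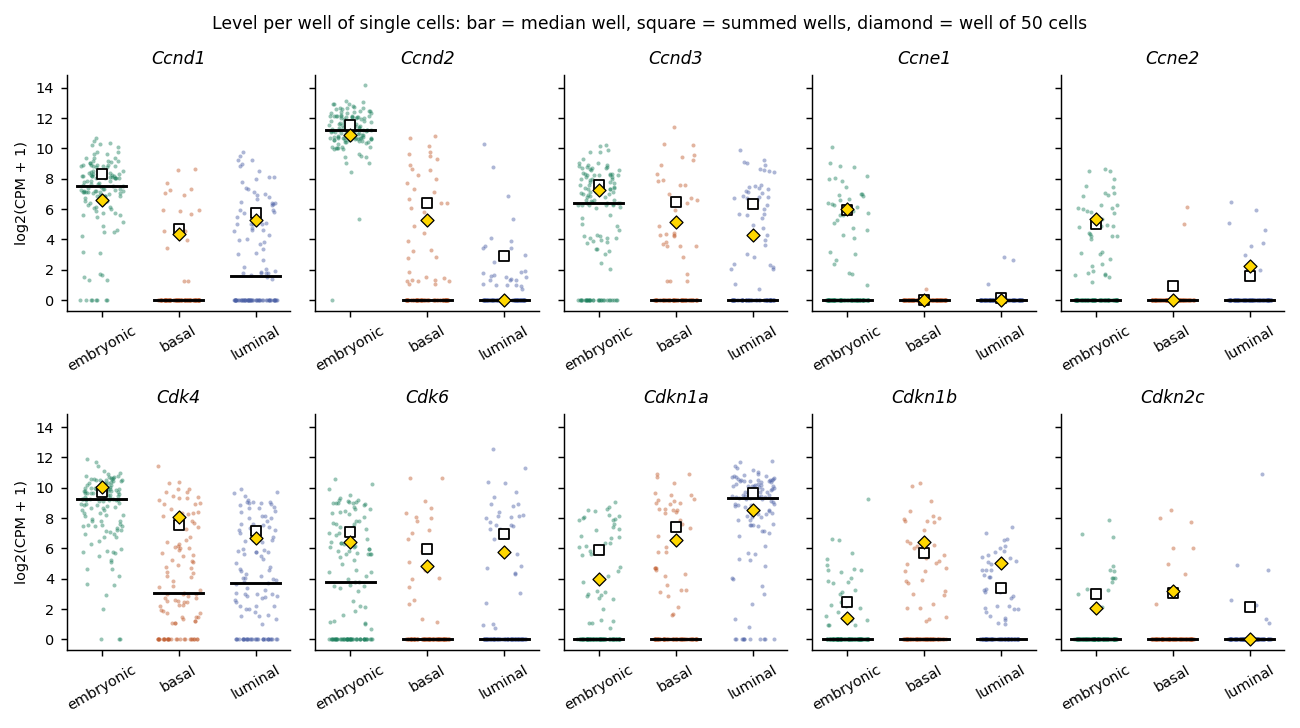
Level of each gene in every kept single-cell well, as log2(CPM + 1), for 347 wells in 3 gates. Black bars are medians over wells, squares summed wells and diamonds wells of 50 cells. Embryonic wells form a compact band near the top only for Ccnd2, while most other genes have many wells at 0.

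Which D cyclin prevailed differed between gates. By reads per kilobase of exon, Ccnd2 was the highest D cyclin in all but 4 embryonic wells (96.9%, exact 95% interval 92.1 to 99.1). Among the 58 basal wells with a D cyclin read it was Ccnd2 in 26, Ccnd3 in 20 and Ccnd1 in 12. Among 87 such luminal wells it was Ccnd1 in 45 (51.7%, 40.8 to 62.6), Ccnd3 in 32 and Ccnd2 in 10. With each well thinned to 50000 reads and 5 reads taken as detection, all 3 D cyclins were detected in 41 embryonic wells (32.3%, 24.3 to 41.2), and in 0 basal and 0 luminal wells, which allows shares of up to 2.78% and 2.68%. No D cyclin was detected in 1 embryonic well, 74 basal wells (68.5%, 58.9 to 77.1) and 78 luminal wells (69.6%, 60.2 to 78). Without thinning, 25 luminal and 50 basal wells held no read of any D cyclin. Most of the 78 luminal wells were thus below the detection limit and not empty, while most of the 74 basal wells held no read. Counting any read without thinning, all 3 D cyclins were present in 92 embryonic, 6 basal and 7 luminal wells. In summed reads per kilobase, Ccnd2 made up 78.4% of the 3 D cyclins in embryonic wells, and in luminal wells Ccnd1 made up 53.4% and Ccnd3 43.3%.

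**Figure D3:**
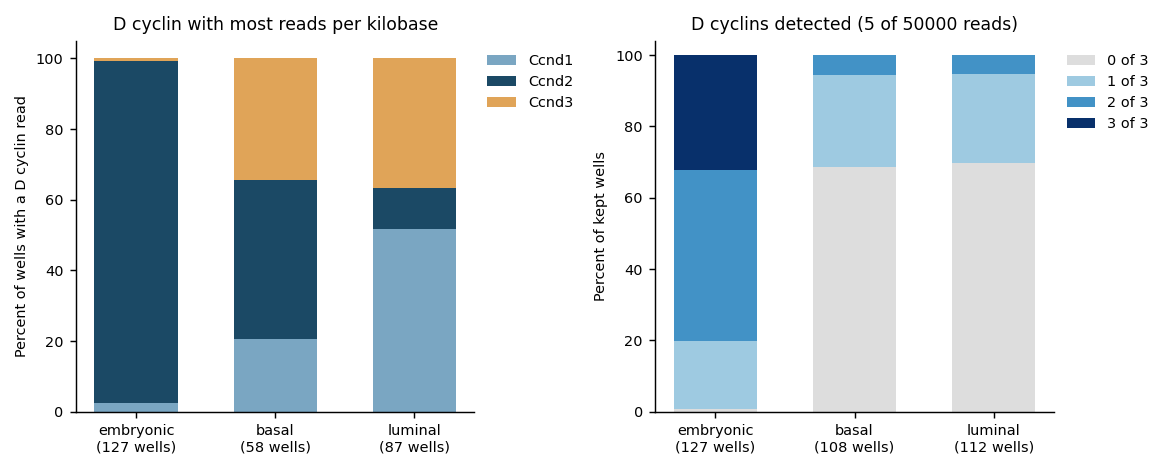
Left, percent of wells with any D cyclin read in which each D cyclin had the most reads per kilobase (all embryonic, 58 basal and 87 luminal wells). Right, percent of kept wells in which 0, 1, 2 or 3 D cyclins reached 5 of 50000 reads. Ccnd2 leads in 96.9% of embryonic wells, and all 3 D cyclins together reach the limit in 32.3% of embryonic and in 0 basal and luminal wells.

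Cdk4, the kinase partner of the D cyclins, was high in embryonic cells and present in all gates. Embryonic wells ran from 0 over a median of 614 to 3777 CPM, basal wells from 0 over 7.30 to 2726 CPM and luminal wells from 0 over 12.5 to 967 CPM. A read was found in all but 3 embryonic wells (97.6%), in 81 basal wells (75%) and in 81 luminal wells (72.3%). The embryonic quartiles (182 to 998 CPM) stood clear of the basal (0.81 to 117.985 CPM) and luminal ones (0 to 146 CPM), which overlapped. The sums were 845, 185 and 141 CPM, 4.57-fold (4.47 to 4.66) and 5.99-fold (5.86 to 6.12) higher in embryonic cells, and the wells of 50 cells held 1079, 266 and 101.3 CPM. Basal exceeded luminal cells by 1.31-fold (1.27 to 1.35), a difference that turned with spike-in totals (log2 -0.44). Within each gate the CPM of Cdk4 was higher in deeper wells, with rank correlations across wells of 0.47 in embryonic, 0.26 in basal and 0.20 in luminal wells between its CPM and the gene reads of the well.

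The start of Cdk4 is shown because its upstream sequence is rich in E-boxes, the motif CACGTG that Myc-family factors bind. RefSeq promoter windows of GRCm38.p6 were given for 7 of the 10 genes, 10 windows in all. The 249 bases before the Cdk4 start (chr10:127063285-127063533, plus strand, upstream of the annotated first exon) read as follows, with the E-boxes in capitals.
Cdk4: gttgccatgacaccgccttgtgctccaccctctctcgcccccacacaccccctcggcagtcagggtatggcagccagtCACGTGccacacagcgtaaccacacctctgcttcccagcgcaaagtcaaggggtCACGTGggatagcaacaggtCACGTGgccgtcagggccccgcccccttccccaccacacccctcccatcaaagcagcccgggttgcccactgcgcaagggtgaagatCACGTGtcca
The window held 4 E-boxes, of which the farthest lies 172 and the nearest 11 bases before the start. Of 32851 mouse promoter windows cut to the same 250 bases before the start, 1978 (6.02%) held at least 1 E-box on either strand (the motif is its own reverse complement) and 7 (0.0213%) held at least 4. A match describes the letters and not binding. Myc itself was lower in embryonic (16.1 CPM) than in basal (250.1 CPM) and luminal cells (93.1 CPM). Its relative Mycn, chosen after its values were seen, went the other way, with 13.3 CPM, 1.28 CPM and 0 reads, and in the wells of 50 cells it was at 1.61 CPM in the embryonic well and 0 reads in the others.

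Cdk6, the second D cyclin kinase, was scattered in every gate. Embryonic wells ran from 0 over a median of 12.7 to 1545 CPM, basal wells from 0 over 0 to 1608 CPM and luminal wells from 0 over 0 to 6082 CPM, with overlapping quartiles. Sums were 135.2, 61.3 and 120.9 CPM, 2.21-fold (2.12 to 2.29) higher in embryonic than basal cells and 1.12-fold (1.09 to 1.15) higher than in luminal cells. The wells of 50 cells gave 85.2, 28.2 and 54.4 CPM. The difference from basal cells fell below 2-fold under TMM scaling (log2 0.81) and without the wells holding fibroblast markers (log2 0.73), which took the embryonic level to 105.8 CPM. The difference from luminal cells changed sign under TMM scaling (log2 -0.30). A Cdk6 promoter window cut before the first exon held 1 E-box.

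Cyclin E transcripts were found almost only in embryonic wells. Ccne1 ran from 0 over a median of 0 to 1085 CPM in embryonic wells, with a read in 37 wells (29.1%). In the basal gate 1 well held a single read, and in the luminal gate 3 wells held 7 reads together, the highest at 6.08 CPM. The sums were 61.4, 0.018 and 0.10 CPM, ratios of 3350 (601 to 132346) and 600 (291 to 1492), where the first rests on 1 basal read. Wells of 50 cells repeated the pattern, with 62.7 CPM in the embryonic well and 0 reads in both adult wells, at least 12.6-fold and 11.1-fold higher at the limit of 3 reads. The embryonic reads were concentrated, as 5 wells held 56.9% of them and well 60 alone 17.7%.

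Ccne2, the other E cyclin, was also highest in embryonic cells. It ran from 0 over 0 to 398 CPM in embryonic wells, with a read in 42 wells (33.1%), in 2 basal wells (1.85%) up to 69 CPM and in 8 luminal wells (7.14%) up to 86.6 CPM. Sums were 31.7, 0.93 and 2.03 CPM, 33.9-fold (25.7 to 45.6) and 15.6-fold (13.1 to 18.6) higher in embryonic cells. The wells of 50 cells gave 40.2 CPM, 0 reads and 3.75 CPM. A single basal well held 94.1% of the basal reads and luminal well 41 held 48.9% of the luminal reads, and neither well had any of the 10 mitosis markers. Both cyclins E were detected together in 3 embryonic wells, Ccne1 alone in 11 and Ccne2 alone in 12, with a rank correlation of 0.26 over the embryonic wells. At 5 of 50000 reads neither was detected in any adult well, which allows up to 2.78% of basal and 2.68% of luminal wells.

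Cdkn1a, the inhibitor p21 and a classical p53 target, marked the luminal gate. Luminal wells ran from 0 over a median of 635 to 3516 CPM, basal wells from 0 over 0 to 1942 CPM and embryonic wells from 0 over 0 to 522 CPM. Luminal quartiles (167 to 1140 CPM) lay above those of basal (0 to 25.5 CPM) and embryonic wells (0 to 7.29 CPM). After thinning it was detected in 85 luminal wells (75.9%, 66.9 to 83.5), 23 basal wells (21.3%, 14 to 30.2) and 18 embryonic wells (14.2%, 8.62 to 21.5). The sums were 797, 165 and 58.4 CPM in luminal, basal and embryonic cells, and the wells of 50 cells held 366, 94.7 and 14.5 CPM. Luminal cells stood 13.6-fold (13.3 to 14) above embryonic and 4.82-fold (4.71 to 4.93) above basal cells.

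The basal level of Cdkn1a depended on wells in doubt. Basal cells were 2.83-fold (2.74 to 2.93) above embryonic cells in the sums, but basal well 62, closest to the luminal well of 50 cells, held 16.6% of the basal reads. Without the 10 basal wells closest to another gate the basal level was 116.4 CPM (log2 ratio of embryonic to basal -0.98), and without those and the wells with fibroblast, endothelial or immune markers it was 67.9 CPM beside 63.5 CPM in embryonic cells (log2 -0.10). With spike-in totals the ratio was -0.16. The luminal excess held in each of these settings (log2 of embryonic to luminal between -4.57 and -3.25 over all alternatives).

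Most genes of the response to tissue dissociation were, like Cdkn1a in the summed wells, lower in embryonic than in either adult gate. Of 12 such genes (Fos, Egr1, Atf3 and others), 11 were at least 2-fold lower in embryonic than in basal and 11 lower than in luminal cells, beside 19.4% and 17.6% of all genes, with median log2 ratios of -2.20 and -2.55. The count was 11 of 12 in each case also when the wells of 50 cells had to pass, beside 11% and 10.6% of all genes. Their summed level was 2313 CPM in embryonic, 12651 CPM in basal and 13158 CPM in luminal cells, with ranges over wells of 47.2 to 9922, 34.3 to 43609 and 1478 to 55850 CPM. The basal and luminal totals were close, but 3 of the 12 genes were at least 2-fold lower in basal than luminal cells and 0 higher. Of all genes, 21.3% were lower and 28.3% higher there. The 3 were Atf3 (315 against 1878 CPM), Fosb (265 against 1515 CPM) and Hspa1b (12.3 against 29.9 CPM). Cdkn1a differed 4.82-fold between these gates. Across wells of 1 gate, Cdkn1a correlated with the summed level of the 12 genes by rank at 0.33 in embryonic, 0.17 in basal and -0.26 in luminal wells. With the gene reads of the well, its rank correlations were 0.36, 0.16 and 0.27. The part of the dissociation response in the level of Cdkn1a was not tested.

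Cdkn1a has 2 promoter windows, and the upstream one is shown because it carries matches to the 10-letter p53 half-site. The 247 bases before it (chr17:29090729-29090975, plus strand) held 2 of them, given in capitals, 73 and 51 bases before the start.
Cdkn1a: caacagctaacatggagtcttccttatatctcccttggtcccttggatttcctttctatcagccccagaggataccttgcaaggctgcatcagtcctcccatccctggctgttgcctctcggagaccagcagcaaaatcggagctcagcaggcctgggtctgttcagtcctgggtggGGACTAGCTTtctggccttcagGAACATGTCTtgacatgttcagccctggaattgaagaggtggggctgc
At least 1 half-site occurred in 2341 of 32851 windows (7.13%) and at least 2 in 85 (0.259%), and the second Cdkn1a window (chr17:29093519-29093768) held none. The p53 list held genes in both directions. Of its 13 genes, 3 were at least 2-fold higher and 4 lower in embryonic than in basal cells, beside 33.8% and 19.4% of all genes, and 5 higher and 4 lower than in luminal cells, beside 39.3% and 17.6%. When the wells of 50 cells had to pass too, these counts were 1 and 3, beside 19.1% and 11% of all genes. Against luminal cells they were then 3 and 2, beside 26.6% and 10.6%. Trp53 itself was at 251, 160 and 74.7 CPM in embryonic, basal and luminal cells, highest where Cdkn1a was lowest. Btg2, an antiproliferative p53 target, was lower in embryonic cells (126.4 CPM) than in basal (652 CPM) and luminal cells (595 CPM), Trp53inp1 was highest in luminal cells (406 CPM against 109.1 and 160.2 CPM), and Phlda3 was highest in basal cells (162 CPM against 38.2 and 5.97 CPM).

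Cdkn1b, the inhibitor p27, was highest in basal cells. Basal wells ran from 0 over 0 to 1249 CPM, luminal wells from 0 over 0 to 171 CPM and embryonic wells from 0 over 0 to 596 CPM. It was detected after thinning in 14 basal wells (13%, 7.27 to 20.8), 3 luminal wells and 3 embryonic wells. The sums were 50.9, 9.60 and 4.48 CPM, and the wells of 50 cells 84.7, 31.9 and 1.61 CPM in the same order. Basal cells stood 11.4-fold (10.2 to 12.6) above embryonic and 5.30-fold (4.87 to 5.78) above luminal cells. The step from luminal to embryonic cells, 2.14-fold (1.89 to 2.43), was log2 -0.95 with the prior and ranged from -3.66 to -0.21 over the alternatives. The 250 bases before its start, shown to set beside those of Cdk4 and Cdkn1a (chr6:134920151-134920400, plus strand), held no match to the E-box, the p53 half-site or 4 E2F motifs (TTTCCCGC, TTTCGCGC, TTTGCCGC and TTTGGCGC, both strands), at least 1 of which occurred in 611 of 32851 windows (1.86%).
Cdkn1b: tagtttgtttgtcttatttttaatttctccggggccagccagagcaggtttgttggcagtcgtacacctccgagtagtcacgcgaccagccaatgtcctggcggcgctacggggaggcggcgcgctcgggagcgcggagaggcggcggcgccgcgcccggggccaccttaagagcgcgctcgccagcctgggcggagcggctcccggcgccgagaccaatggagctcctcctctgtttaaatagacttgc

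Cdkn2c, the INK4 inhibitor p18, was near the floor. It ran from 0 over 0 to 228 CPM in embryonic, from 0 over 0 to 373 CPM in basal and from 0 over 0 to 1938 CPM in luminal wells, with a read in 15, 8 and 7 wells. Sums were 6.95, 7.17 and 3.39 CPM, and the wells of 50 cells held 2, 5 and 0 reads. A single luminal well held 78.9% of the luminal reads. No order of the gates can be read from these values, since quartiles were 0 in all gates and the sign of each ratio changed among the alternatives.

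Between genes, levels were set side by side per kilobase of merged exons, which is not the length of 1 transcript. In embryonic cells the summed level was 322 CPM per kilobase for Ccnd2, 259.97 for Cdk4, 66.6 for Ccnd1, 23.1 for Ccne1, 22 for Ccnd3, 16.4 for Cdkn1a, 9.67 for Cdk6 and 9.06 for Ccne2, with Cdkn2c (2.59) and Cdkn1b (0.98) lowest. In luminal cells Cdkn1a led with 224 CPM per kilobase, ahead of Cdk4 (43.4), Ccnd1 (11.4) and Ccnd3 (9.21). In basal cells Cdk4 stood at 56.9 and Cdkn1a at 46.6, but without the wells in doubt (those closest to another gate or with fibroblast, endothelial or immune markers) these were 62.3 and 19.1. They were followed by Cdkn1b (11.2), Ccnd3 (9.82) and Ccnd2 (8.69). Well by well, the highest of the 10 genes per kilobase was Ccnd2 in 77 (60.6%, 51.6 to 69.2) and Cdk4 in 44 embryonic wells (34.6%, 26.4 to 43.6) and Cdkn1a in 85 luminal wells (75.9%, 66.9 to 83.5). Among 100 basal wells with a read of any of the 10, it was Cdk4 in 39, Cdkn1a in 24 and Cdkn1b in 13.

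Within the embryonic gate, the cyclins differed between wells with different cell cycle transcripts. Wells were divided by 10 mitosis and 10 replication markers that contain none of the 10 genes: 39 wells with at least 3 mitosis markers detected, 26 with at least 3 replication markers only, and 62 with neither, at a median depth of 898878, 817392 and 540202 gene reads. At least 3 replication markers were detected in 54 embryonic wells in all, of which 26 form the replication-only class. Most of the 39 mitosis wells therefore also held replication transcripts. Near the limits lay 11 wells with 2 or 3 mitosis and 31 with 2 or 3 replication markers, so the classes are ranges and not cell types. Ccnd1 was highest in replication-only wells, with a sum of 516 CPM (506 to 526) against 200 CPM in mitosis and 301 CPM in other wells, and well medians of 325, 135.5 and 170 CPM. It was detected in 24 of 26 replication-only, 21 of 39 mitosis and 41 of 62 other wells. Ccnd2 was lowest in mitosis wells, with 2085 CPM (well median 1606) against 4007 CPM (2996) in replication-only and 3380 CPM (3163) in other wells. With 2 markers in place of 3, Ccnd2 was 2241, 3448 and 3757 CPM, so the order of the latter 2 classes turned while mitosis wells remained lowest.

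Ccne1 and Ccne2 were highest in mitosis wells, a class in which most wells also held replication transcripts, and Ccnd2 was lowest there. Ccne1 summed to 115.4 CPM in mitosis, 54.3 CPM in replication-only and 10.5 CPM in other wells, and was detected in 9 of 39, 3 of 26 and 2 of 62. The corresponding values of Ccne2 were 52.2, 30.6 and 11.2 CPM, in 8, 4 and 3 wells. Well maxima were 1085, 433 and 178 CPM for Ccne1, and its well medians were 8.04, 0 and 0 CPM, so the classes overlapped. Single wells carried much of the lower values. Without the top well of each class, an alternative added after seeing the data, Ccne1 was 89.5, 36.9 and 3.40 CPM and Ccne2 36.5, 18.9 and 7.36 CPM, in the same order. Cdkn2c read 13.1, 7.63 and 0.15 CPM, but 1 well held 90.3% of its replication-only reads and 1 well all 5 reads of the last class. Without the top wells it was 8.06, 0.79 and 0 CPM, while Ccnd3 stayed within 177 to 207 CPM and Cdk4 ran from 737 CPM in other wells to 991 CPM in mitosis wells. Depth was highest in the mitosis wells and moved with these differences. Its part was not tested. Detection after thinning to equal depth gave the same order of the classes for Ccne1 and Ccne2, but with overlapping intervals. For Ccne1 they were 11.1% to 39.3% in mitosis, 2.45% to 30.2% in replication-only and 0.393% to 11.172% in other wells. For Ccne2 they were 9.3% to 36.5%, 4.36% to 34.9% and 1.01% to 13.5%.

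**Figure D4:**
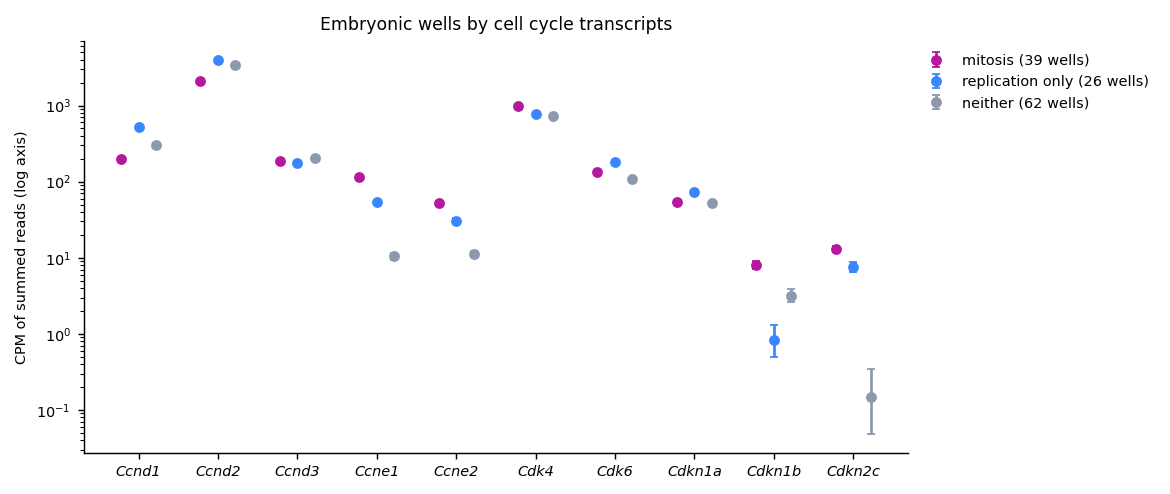
CPM of summed reads (log axis) of the 10 genes in embryonic wells with mitosis transcripts, with or without replication transcripts (39 wells), replication transcripts only (26 wells) and neither (62 wells). Bars are exact Poisson intervals, often smaller than the points. Ccne1, Ccne2 and Cdkn2c descend from mitosis to other wells (for Cdkn2c, 1 well holds 90.3% of the replication-only reads), while Ccnd1 is highest in replication-only wells.

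In the adult gates, mitosis markers reached 3 in 2 basal and 1 luminal wells and replication markers in 0 and 2, so that no such division was made there. Of the 12 adult wells with a Ccne1 or Ccne2 read other than luminal well 14, none had more than 1 mitosis marker. For replication markers, luminal wells 14 and 99, the same 2 that reached 3 of them, held 10 and 2 reads of Ccne2, and luminal wells 41, 53, 64 and 67 had 1 such marker each. Adult wells of Ccne1 were luminal wells 14, 64 and 68 with 1, 5 and 1 reads and basal well 76 with 1 read.

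Luminal cells were divided by whether they carried more of 6 hormone-receptor markers (such as Prlr, Esr1 and Pgr; 47 wells, median depth 808345) or more of 6 secretory markers (such as Csn3, Elf5 and Kit; 63 wells, median depth 482621), with 2 wells equal and 4 wells separated by 1 marker. Cdkn1a was present in both: wells ran from 0 over 366 to 1779 CPM in the first and from 0 over 981 to 3516 CPM in the second class, with sums of 562 (554 to 571) and 1035 CPM (1024 to 1046). Its share of wells with detection was 35 of 47 (74.5%) and 49 of 63 (77.8%), so the classes differed in level and little in detection. Cdk6 was at 22.6 CPM in hormone-receptor and 219 CPM in secretory wells, detected in 2 of 47 and 19 of 63, and in the former 1 well held 59.7% of its reads. Without the top well of each class the levels were 9.26 and 171 CPM. Ccnd1 (74.1 against 35 CPM), Ccnd3 (110.6 against 54.3 CPM) and Cdk4 (179 against 105.4 CPM) were higher in hormone-receptor wells, with detection of Ccnd1 in 12 of 47 and 6 of 63 wells. The classes overlapped for each of these genes, and the deeper wells were those of the hormone-receptor class.

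**Figure D5:**
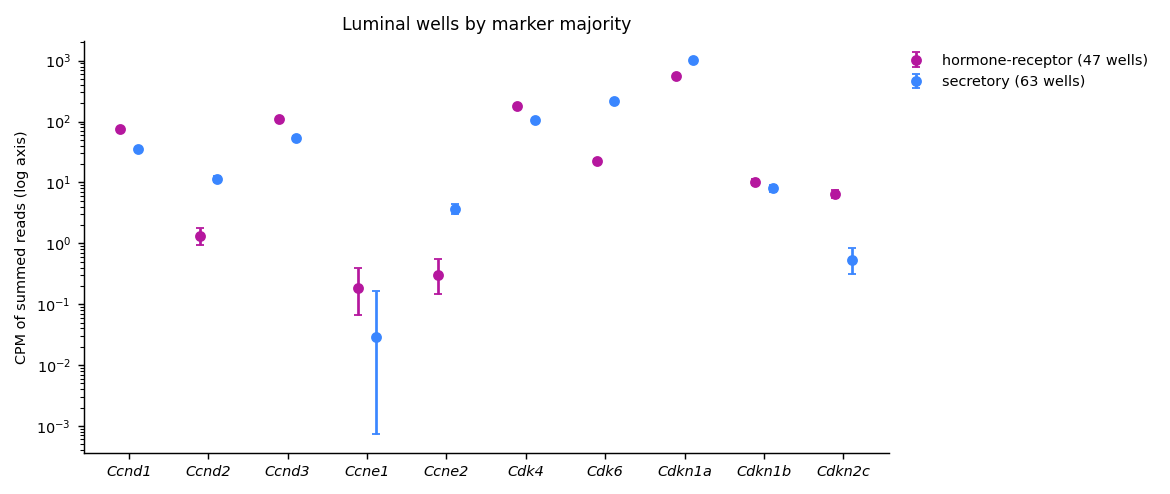
CPM of summed reads (log axis) of the 10 genes in luminal wells with more hormone-receptor markers (47 wells) or more secretory markers (63 wells). Bars are exact Poisson intervals. Cdk6 (22.6 against 219 CPM) and Cdkn1a (562 against 1035 CPM) are higher in secretory wells, and Ccnd1, Ccnd3 and Cdk4 are higher in hormone-receptor wells.

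Pairs of these genes showed little order within a gate. In embryonic wells Ccnd1 and Ccnd2 were detected together in 86 wells (67.7%) and Ccnd1 never without Ccnd2, with a rank correlation of CPM of 0.29. All 18 embryonic wells with Cdkn1a also had Cdk4 and Ccnd2. In luminal wells Cdkn1a was detected with Ccnd1 in 11, without it in 74, and Ccnd1 without Cdkn1a in 7 wells, with a rank correlation of -0.07. Points within a gate share the plate and differ in depth, and correlations this weak in sparse counts are given as description only.

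Genes with the most similar pattern across all 347 wells mostly followed the gates. By rank correlation over 9116 genes, the closest to Ccnd2 were Igf2 (0.82), Sox11 (0.81) and Ndnf (0.80), all high in embryonic wells, but within the embryonic wells these correlations were -0.05, 0.18 and 0.02. The closest to Cdkn1a were Tnfrsf12a (0.66), Fosl1 (0.64) and Clu (0.63), and within luminal wells they kept 0.43, 0.52 and 0.32. Within embryonic wells the closest to Ccne1 were Mcm5 (0.56), a subunit of the replicative helicase, Fam111a (0.53) and Timeless (0.53), and the closest to Ccne2 were Slfn9 (0.47), Kntc1 (0.44) and E2f7 (0.43), an E2F family repressor. For Ccnd1 across all wells they were Grb10 (0.63), Igf2 (0.60) and Ndnf (0.60), and for Cdk4 Gm1673 (0.60), Stmn1 (0.59) and Fn1 (0.59). In embryonic wells the CPM of Ccne1 and Ccne2 also correlated by rank with the gene reads of the well, at 0.42 and 0.27. The part of depth in these correlations was not tested.

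The other genes of the pathway were counted list by list, and each count is to be read beside the share of all genes at least 2-fold higher (33.8% against basal and 39.3% against luminal cells) or lower (19.4% and 17.6%) in embryonic cells. Of 13 RB family and E2F genes, 8 were higher and 0 lower against basal, and 9 higher and 1 lower against luminal cells (median log2 1.95 and 1.87, beside 0.38 and 0.58 over all genes). When the wells of 50 cells had to pass too, the counts higher were 6 and 9, beside 19.1% and 26.6% of all genes. The lower one was Rb1, the retinoblastoma gene, which stood at 237 CPM in luminal cells against 30.0 CPM in embryonic and 31.3 CPM in basal cells. E2f6 was 66.7 against 8.49 and 8.62 CPM, Tfdp1, an E2F partner, 94.1 against 23.6 and 38.4 CPM, and Tfdp2 127.1 against 89.1 and 36.6 CPM, the first a difference of only 1.43-fold. Of the 6 later cyclins and kinases, 5 were higher against basal and 6 against luminal cells, among them Cdk2, the partner of the cyclins E (117.5 against 4.29 and 24.8 CPM), and Cdk1 (156 against 7.86 and 0.95 CPM). Cdk1 and Ccnb1 of this list are also mitosis markers.

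Of 5 further CDK inhibitors, Cdkn1c (p57), an imprinted Cip/Kip gene, went against the pattern of its relatives Cdkn1a and Cdkn1b, with 530 CPM in embryonic, 19.98 CPM in basal and 2.24 CPM in luminal cells. Cdkn2d (p19) was at 26.3, 30.5 and 6.45 CPM, and Cdkn2b at 0.011, 0 and 8.30 CPM. Of 12 genes that degrade cyclins or inhibitors, 6 were higher and 2 lower against basal, and 4 higher and 1 lower against luminal cells. The 4 of 12 are a smaller share than the 39.3% of all genes, and the 2 of 12 are close to the 19.4%. Cks1b, which helps the ligase of p27, was at 248, 79.9 and 28.7 CPM, and Dtl, which targets p21 during replication, at 221, 10.0 and 0.40 CPM. Of 9 upstream factors, 3 were higher and 2 lower against basal cells and 6 higher and 2 lower against luminal cells, where the counts against basal cells equal the background shares within 1 gene. Lef1, a Wnt effector, was at 158 against 0.75 and 0.73 CPM and Ctnnb1 at 691 against 435 and 275 CPM, while Myc and Foxo1 (45.6 against 233 and 148 CPM) were lower in embryonic cells. Of 7 genes (the CDK-activating kinase, the Cdc25 genes and Wee1, an inhibitory kinase), 4 were higher against basal and 3 against luminal cells. Of these genes 0 were lower, and the count against luminal cells was near the background share. When the wells of 50 cells had to pass too, the counts higher were 2 and 3, beside 19.1% and 26.6% of all genes. Among them was Cdc25a at 65 against 9.18 and 2.88 CPM. Wee1 was counted as higher only against basal cells and only in the sums, at 100.6 CPM against 5.46 CPM in basal and 138.9 CPM in luminal cells.

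The genes lie on chromosomes 4, 5, 6, 7, 10 and 17 of GRCm38, and 7 of the 10 have exons that overlap exons of a gene on the other strand. For Ccnd1 (chr7:144929931-144939925) these are 1100 bases shared with LTO1, for Cdk4 (chr10:127063534-127067920) 641 bases with Tspan31, for Ccne2 (chr4:11191351-11204779) 609 bases with Ints8, and for Ccnd2 (chr6:127125162-127152193) 372 and 368 bases with the antisense genes Gm43126 and 9330179D12Rik. Whether reads were counted by strand is not stated in the labels, and reads in these stretches may be shared between the genes of a pair or missing from both. Ccnd3 shares 361 bases with Bysl, Cdk6 368 bases with Gm17590 and Cdkn1a 273 bases with AC167363.2. Ccne1 (chr7:38097984-38107534), Cdkn1b (chr6:134920401-134925513) and Cdkn2c (chr4:109660876-109667189) have no such overlap. In the 4 wells without a cell, which held 34 to 563 gene reads, Cdk4 and Cdkn1a had 1 read each and the other 8 genes none.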

How the data were processed

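The deposited values are read counts per gene and well, 1 table with 49585 genes and 92 spike-ins. The authors' tools, per the submitters' processing notes, were HTSeq 0.6.0, STAR 2.5.2b and cutadapt 1.13, with the build GRCm38. Per the labels' protocols, libraries were made by a modified Smart-seq2 protocol with spike-ins and Nextera XT. Reads carry no molecular identifiers and PCR copies are not independent, so intervals cover counting error only. Annotation and strand setting: not given in the sources used here.

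Columns were matched to wells by index pair, and groups come from the sort labels. The well with conflicting labels entered no comparison. No 2 columns were identical. No doublet caller was run. Of 137 embryonic, 118 basal and 121 luminal single-cell wells, those with at least 50000 gene reads were kept (127, 108 and 112). Levels are reads summed per gate over summed gene reads (CPM, exact Poisson intervals), folds are ratios of CPM with exact conditional intervals, and log2 ratios add 1 CPM. A gene counted as measured where 1 of the 2 gates reached 5 CPM. Since each gate is 1 sample, no test was made. Shares of wells were taken after thinning to 50000 reads, with 5 reads as detection and exact Clopper-Pearson intervals, all at 95%. A share or level of 0 is given with a limit of 3 wells or reads. Symbols, coordinates and exon lengths came from GENCODE M21, and promoter sequences from RefSeq. Exon lengths merge all annotated exons.

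The 10 genes and the lists were chosen with earlier results of these data known. Named pathway genes were, per list and comparison, the 4 with the highest CPM in either gate, and, where there were 3 or fewer, those against the list's direction. Similar genes were the 3 with the highest Spearman correlation among genes with at least 20 CPM in 1 gate and a read in at least 10% of wells, for those of the 10 with a read in at least 20% of wells, and within embryonic wells for Ccnd1, Ccnd2, Ccne1 and Ccne2. Python 3.11.15, scipy 1.17.1, R 4.3.3 and edgeR 4.0.16 (TMM factors only) were used, and the sums and ratios were tested on simulated data. Alternatives changed the scaling, filters, thinning, prior, wells and detection limit.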

Additional observations from a re-analysis of the deposited data

Results flagged for a closer look

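Among the 4 wells without a cell, Cdk4 had 1 read in 1 well and Cdkn1a 1 read in another, and 0 reads in the others, so that 1 well stood apart from the rest for each. With 1 read in all, 1 well necessarily stands apart. The labels of 1 well disagree on the gate, and it entered no comparison. Of its 774060 gene reads it held Cdk6 at 198.95 CPM (95% Poisson interval 169 to 233), Cdkn1a at 164 CPM (136.8 to 195), Cdk4 at 147 CPM (121.5 to 177), Ccnd3 at 68.5 CPM (51.3 to 89.6) and Cdkn1b at 5.17 CPM (1.41 to 13.2), each above the reads in the wells without a cell. Ccnd1, Ccnd2, Ccne1, Ccne2 and Cdkn2c had 0 reads there.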

How the results depend on the processing

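Of 30 log2 ratios, 20 reached 2-fold in the summed wells. Among the alternatives, a prior of 5 CPM cannot change a sign. Leaving out the minimum level cannot change a ratio at all. All 20 ratios kept their sign under the 15 alternatives and 15 of them stayed at least 2-fold in each. The exceptions were Ccnd3 against both adult gates and Cdk6 and Cdkn1a in embryonic against basal cells, with the values given above, and Ccnd1 in basal against luminal cells (log2 -0.99 with a prior of 5 CPM and -0.88 in the wells of 50 cells, between -2.27 and -0.88 in all). The alternatives without wells that hold fibroblast markers and without the top well of each class were chosen after seeing the data. The count of genes at least 2-fold higher in embryonic than basal cells went from 7 to 5 under TMM and median-of-ratios scaling, to 6 in 5 other settings and to 8 with spike-in totals, and the count lower went from 2 to 3 through Cdkn2c with thinning (log2 -1.30), in the wells of 50 cells (-1.14) and in shared plate rows (-1.96). It went to 1 with spike-in totals, without wells that match another gate, and without those and wells with fibroblast, endothelial or immune markers. Against luminal cells the count higher went from 6 to 5 under both scalings and in shared plate rows, and to 7 with spike-in totals and at least 200000 gene reads. The count lower went from 1 to 2, through Cdkn1b under TMM, median-of-ratios, at least 200000 gene reads, the wells of 50 cells and without the top well of each gene, and through Cdkn2c under the mean of per-well CPM and thinning. The count lower in basal than luminal cells went from 2 to 1 with a prior of 5 CPM and in the wells of 50 cells, and to 3 in 8 others. The count higher went from 2 to 4 in the wells of 50 cells and to 3 in 2 other settings. Calls over all genes moved too. Against basal cells, 4324 of 12808 genes were higher and 2485 lower in embryonic cells in the main setting. Under TMM these were 3366 and 3094 of 12605, and with spike-in totals 9309 and 1060 of 13119. Against luminal cells they were 4984 and 2229 of 12679, then 3658 and 3062 of 12553, then 7125 and 1714 of 13390. For basal against luminal cells they were 3364 and 2535 of 11885, and 4105 and 2719 of 10068 in the wells of 50 cells. The cause was not tested. Detection shares depend on the limit: Cdk4 in luminal wells was 29.5% at 5 reads and 57.1% at 1 read. No paired analysis was possible because the labels number no replicates. Cdkn2c and the adult cyclins E rest on few reads.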
